A study of Mus musculus with 6 samples.

Results

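The passage from day 7 to day 14 after a photothrombotic stroke was followed by setting the gene values of the day 14 library directly against those of the day 7 library. Genes with a value of at least 1 FPKM (fragment count scaled to transcript length and library size) in either library were compared, which gave 12241 of the 15441 genes that had a value in any of the 6 libraries. The libraries came from the ipsilateral cerebral cortex of male C57/BL6J mice aged 6 to 8 weeks, taken on day 1, day 3, day 7, day 14 or day 28 after the stroke, or from sham-operated controls 7 days after their surgery. RNA from 3 mice was pooled for each group and each group had 1 library, so no difference given here has a replicate check and no test was made. The libraries were poly(A)-selected and strand-specific, and were read as paired ends of 150 bases to a mean of 33.6 M reads by the labels, while the depth of each single library was not given in the sources used here.

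Photothrombosis closes small vessels of the cortical surface by illuminating a circulating dye, and leaves a sharply bounded infarct. In the weeks that follow, microglia and blood-borne macrophages ingest dead cells and myelin, whose cholesterol they must store or export, and cells at the lesion border divide. Reactive astrocytes and matrix-forming cells then wall off the lesion, while interferons, chemokines and antigen presentation shape the slower immune response.

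The deposited FPKM belonged to transcript starts, transcript ends and splicing events, and the value of a gene was the largest of its summed starts, its summed ends and any single event. The value can fall short of the FPKM of the whole gene, and a value of 0 says only that no event of the gene was listed in that library. The microglial receptor gene Cx3cr1, for example, was at 0 in sham and at day 3, 7 and 28 and at 1.84 FPKM at day 14, so that 0 cannot be read as silence. The label of cortex was checked against neuronal markers. Of 15 genes of cortical excitatory neurons, 13 were compared, with a summed value of 858 FPKM at day 7 and 1188 FPKM at day 14, led by Nrgn (449 and 806 FPKM), without which the sums were 409 and 382 FPKM. The layer 6 factor gene Tbr1 was at 14.7 FPKM at day 7 and 14.5 FPKM at day 14, whereas Foxp2, on the same list, was at 2.82 FPKM at day 7 and at 0 at day 14. Genes of other regions were present as well. Markers of striatal projection neurons summed to 391 FPKM at day 7 and 570.1 FPKM at day 14, led by Ppp1r1b (134 and 243 FPKM), those of the choroid plexus to 464 and 379 FPKM, led by Ttr (336 and 291 FPKM), and hypothalamic peptide genes to 40.9 and 28.2 FPKM, led by Avp (18.1 and 11.7 FPKM). These were 9 of 12, 10 of 10 and 6 of 8 genes, the others being below 1 FPKM or without a value. In the other libraries the striatal sum was 429 in sham, 493 and 383 at day 1 and day 3, and 562 at day 28, the choroid plexus sum 405 in sham, 587 and 266 at day 1 and day 3, and 682 at day 28, and the hypothalamic sum 2.16 in sham, 63.0 and 12.4 at day 1 and day 3, and 7.90 at day 28 (all in FPKM). Markers of tissue beyond the cortex thus differed between the libraries, and the part of such tissue in the results was not tested.

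From day 7 to day 14, 13 of 23 genes of dividing cells and 6 of 12 of infiltrating and border macrophages became lower. The same held for 6 of 24 genes of damage-associated phagocytes. Among the lower genes were Spp1, which encodes osteopontin, from 783 to 151 FPKM, and Ube2c, of mitosis, from 2.69 to 0.617 FPKM. Apoe, which carries lipids between cells, was higher, from 855 to 3534 FPKM. So were 5 of 14 chemokine genes, among them Ccl5, from 1.38 to 9.12 FPKM, and the acute-phase gene Lcn2, from 3.09 to 26.6 FPKM. Among 17 myelin genes none moved that far. At a log2 ratio of at least 1 in size, taken after adding 0.1 to each FPKM, 511 genes (4.17%) were higher and 1043 genes (8.52%) were lower at day 14 than at day 7. Adding 0.1 shrinks the ratios of genes whose values are low. With 1 added instead, 20 of the genes named in the text no longer passed, namely Abca1, Aif1, Ccl2, Cfp, Cxcl5, Emp1, Gal, Gbp5, Homer1, Mcm2, Mcm5, Mmp3, Mx1, Plac8, Pmch, Pomc, Sall1, Scn1a, Slc4a5 and Top2a. With 0.1 added, the other 10687 genes stayed within a log2 ratio of 1 in size, and the median log2 ratio of all genes compared was 0.01. Part of the imbalance lay in genes that were not listed. Of the lower genes 359 had no event at day 14, while 72 of the higher genes had none at day 7, which left 439 higher and 684 lower genes listed in both libraries. At the larger log2 threshold of 2 there were 127 higher and 550 lower genes, of which 55 and 191 were listed in both libraries, since any compared gene listed in only 1 of them passes it.

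**Figure D1:**
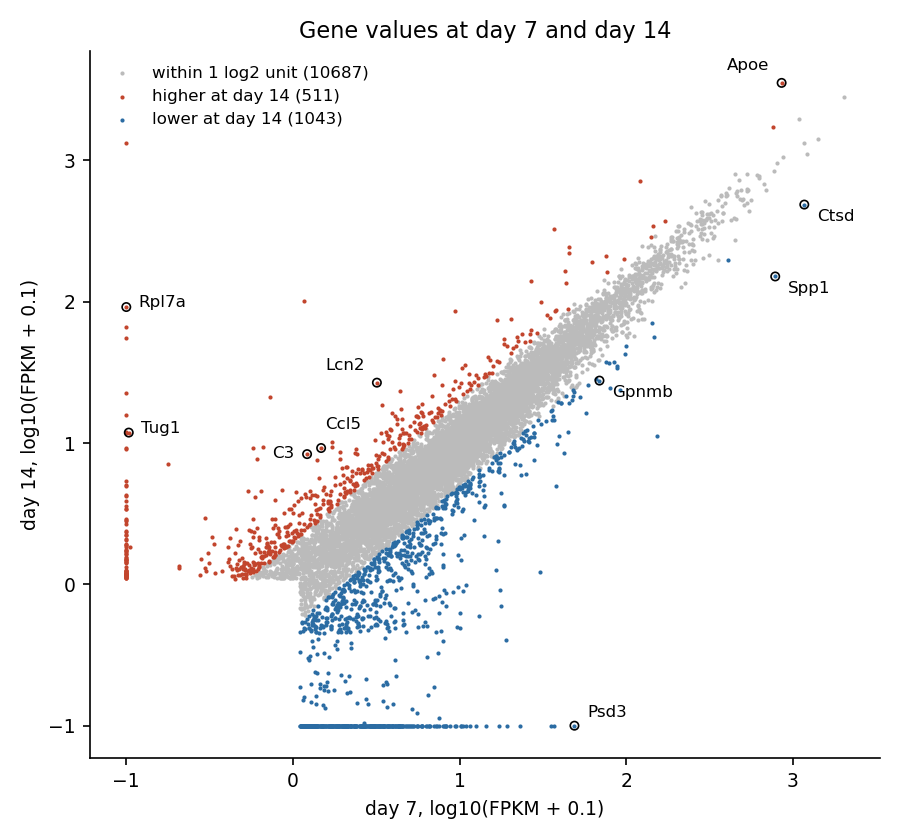
Each point is 1 of the 12241 genes, with its value at day 7 (x axis) and at day 14 (y axis), both as log10(FPKM + 0.1). Red and blue mark the 511 higher and 1043 lower genes, and points at -1.0 on an axis are genes not listed in that library, which are many more on the day 14 axis.

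The lower genes were set apart by the day 14 library more often than by the day 7 library. Day 14 was below sham, day 1, day 3 and day 28 in 697 of the 1043 lower genes (66.8%), against 23.2% of all genes compared, whereas day 7 was above these 4 libraries in 398 (38.2%), against 20.2% of all. For 333 lower genes the day 14 value was even below 0.25 times the lowest of the other 5 libraries, and 234 of them were not listed there. Without the genes that day 7 or day 14 set apart in this way, a count added after the data were seen, 489 genes were higher and 710 lower. Counting genes that had at least 1 FPKM in every other library and fell below 0.25 times the lowest of them, day 14 had 236, day 7 had 9, and sham, day 1, day 3 and day 28 had 23, 26, 9 and 15. For the higher genes, day 14 exceeded the other 4 libraries in 368 of 511 genes (72.0%), against 31.4% of all, and day 7 was below them in 208 (40.7%), against 14.6% of all. Choosing genes by their ratio favours such extremes in itself, so the shares are descriptions.

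The ratio fell with transcript length, as it did for day 14 against the other libraries. Across 12223 genes, which do not count as independent of each other, the log2 ratio and the length of the longest annotated transcript had a Spearman rho of -0.366. For day 14 over sham, day 1 and day 3 it was -0.413, -0.249 and -0.405, for day 28 over day 14 it was 0.410, and for day 28 over day 7 it was 0.0708. Pairs with day 1 had a trend as well, at -0.254 for day 1 over sham. For day 3, day 7 and day 28 over day 1 it was 0.217, 0.156 and 0.240, so such a trend was not particular to day 14. In 20 bins of length, the median log2 ratio went from 0.35 in the bin of the shortest transcripts (median 613 nt) to -0.34 in that of the longest (median 10034 nt), and the share of lower genes from 6.72% to 22.7%. Higher genes had a median length of 2412 nt and lower genes one of 4715 nt, against 3413 nt for all genes compared. After subtracting the median ratio of each length bin, 501 genes (4.1%) were higher and 982 (8.03%) lower, and 408 and 909 of these were also called without the correction. Length correction thus left the excess of lower genes in place.

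The excess depended on the part of the transcript that was measured. Among the 10431 genes with start events in both libraries and summed starts of at least 1 FPKM in either, 390 (3.74%) were higher and 1162 (11.1%) lower by the summed starts, whereas among the 9093 genes with end events in both under the same minimum, 457 (5.03%) were higher and 438 (4.82%) lower by the summed ends. With genes lacking such events in 1 library counted at 0, the summed starts gave 482 higher and 2204 lower genes and the summed ends 584 and 795. In the bin of the longest transcripts the median log2 ratio was -0.68 by the starts and -0.14 by the ends, while in that of the shortest it was 0.34 and 0.35. Day 14 listed 20593 start events against 24647 at day 7, which is 16.4% fewer, and 13866 end events against 15062, which is 7.94% fewer. Among 8696 genes with both sums in both libraries, 181 (2.08%) were higher and 228 (2.62%) lower in starts and ends alike, and the sums are given below for some of the genes in which they parted.

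**Figure D2:**
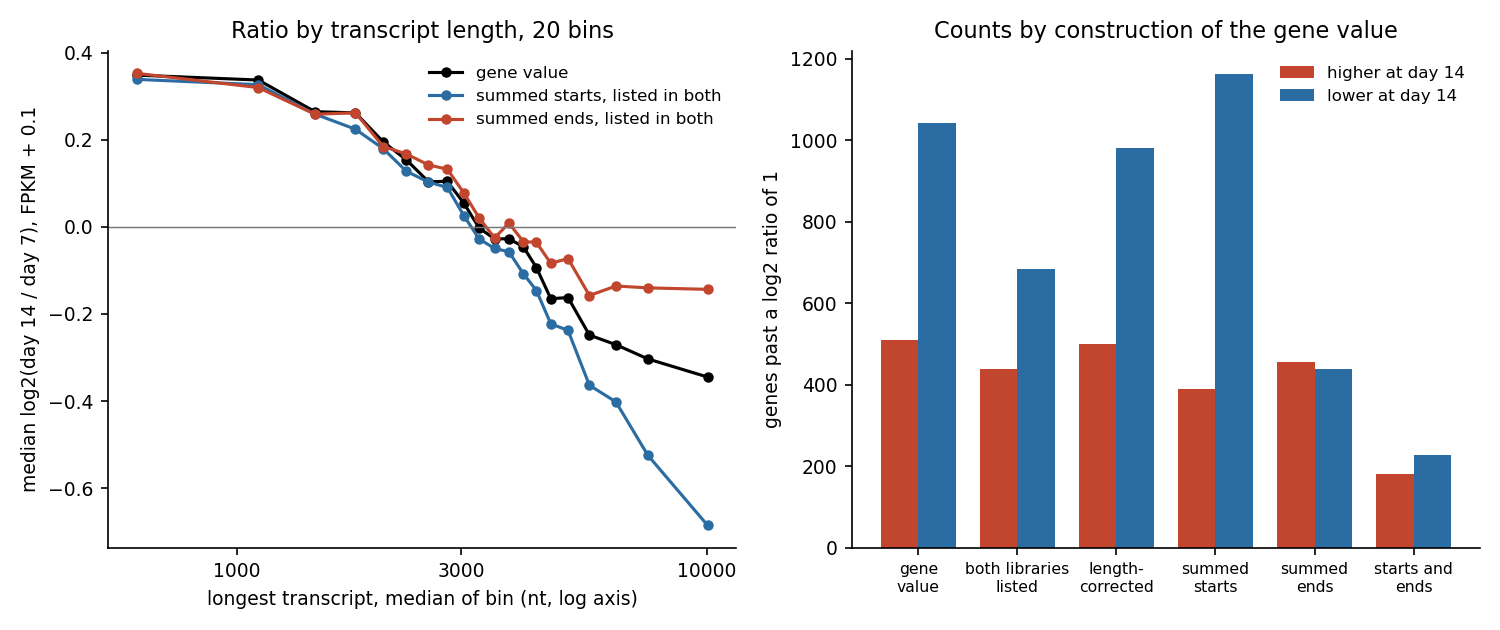
Left, median log2 ratio of day 14 to day 7 in 20 bins of transcript length (log axis, nt) for the gene value and for summed starts and summed ends listed in both libraries; the lines are together at short lengths and reach -0.34, -0.68 and -0.14 in the last bin. Right, number of genes past a log2 ratio of 1 in either direction under 6 ways of counting, with 390 higher against 1162 lower genes by starts and 457 against 438 by ends.

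Among 11177 genes listed in both libraries with at least 90% of their value inside the annotated gene, the 15 largest ratios were those of Tug1, Ablim1, AW495222, Ajm1, Tomm5, Lsm10, AA465934, Capns1, Gm26781, Lcn2, 1500026H17Rik, BC030500, C3, Nkx2-2 and Ino80d. In several of them the day 7 value was the low one. The long noncoding RNA Tug1 was at 12.6 FPKM in sham, 12.1 and 11.5 at day 1 and day 3, and 13.3 at day 28, at 0.00346 FPKM at day 7 and at 11.8 FPKM at day 14, so day 7 stood apart and day 14 matched the other libraries. The calpain small subunit gene Capns1 was also lowest at day 7, with 9.25 FPKM at day 7 and 85.4 FPKM at day 14, against 60.2 in sham, 68.0 and 76.9 at day 1 and day 3, and 55.2 at day 28, but day 14 was its highest library. Tug1, Ablim1, AW495222, Capns1 and Ino80d had a day 7 value below 0.25 times the lowest of the other 5 libraries. Apart from AA465934, the others of the 15 had their highest value of the 6 libraries at day 14. Ajm1, which encodes an apical junction protein, had 0.477 FPKM at day 7 and 9.12 FPKM at day 14, against 0.783 in sham, 0.495 and 1.45 at day 1 and day 3, and 1.46 at day 28, with the same ratio in starts and ends. Tomm5, a subunit gene of the mitochondrial import channel, had 0.559 FPKM at day 7 and 9.35 FPKM at day 14, against 1.95 in sham, 7.79 and 0.502 at day 1 and day 3, and 1.16 at day 28, where day 1 was near day 14.

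The 15 smallest ratios were those of Mbd5, Lcp1, Dlc1, Cbl, Dok6, Frmd4b, Phip, Yes1, Slc39a3, Adarb1, Mrtfb, Nwd2, Rrm2b, Hpgds and Ptprt. Apart from Lcp1, all had a day 14 value below 0.25 times the lowest of the other 5 libraries. Mbd5, which encodes a methyl-CpG-binding domain protein, had 7.40 FPKM at day 7 and 0.0136 FPKM at day 14, against 4.97 in sham, 5.46 and 5.96 at day 1 and day 3, and 8.20 at day 28, from a longest transcript of 8543 nt. Mrtfb, a serum response factor coactivator gene, had 17.5 FPKM at day 7 and 0.607 FPKM at day 14, against 16.98 in sham, 16.2 and 17.6 at day 1 and day 3, and 19.0 at day 28, and the 5 other libraries lay close together. The ubiquitin ligase gene Cbl had 6.34 FPKM at day 7 and 0.0645 FPKM at day 14, against 5.53 in sham, 4.84 and 6.98 at day 1 and day 3, and 5.67 at day 28. For Dlc1, Dok6 and Frmd4b the low value went with the starts and not with the ends. Their summed starts were at 5.44, 5.05 and 6.92 FPKM at day 7 and at 0 at day 14. The log2 ratios of their much lower summed ends were -0.09, 0.20 and 0.64. By summed ends Cbl, Phip, Slc39a3 and Hpgds were lower, with log2 ratios of -5.29, -4.68, -4.26 and -4.39. Mbd5, Lcp1, Yes1, Adarb1, Mrtfb, Nwd2, Rrm2b and Ptprt had no ends listed in both libraries, so their falls have no ratio by ends. Lcp1, the leukocyte actin-bundling protein gene, was different, since its day 7 value was the high one, with 18.8 FPKM at day 7 and 0.302 FPKM at day 14, against 2.99 in sham, 0.426 and 2.23 at day 1 and day 3, and 0.424 at day 28.

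**Figure D3:**
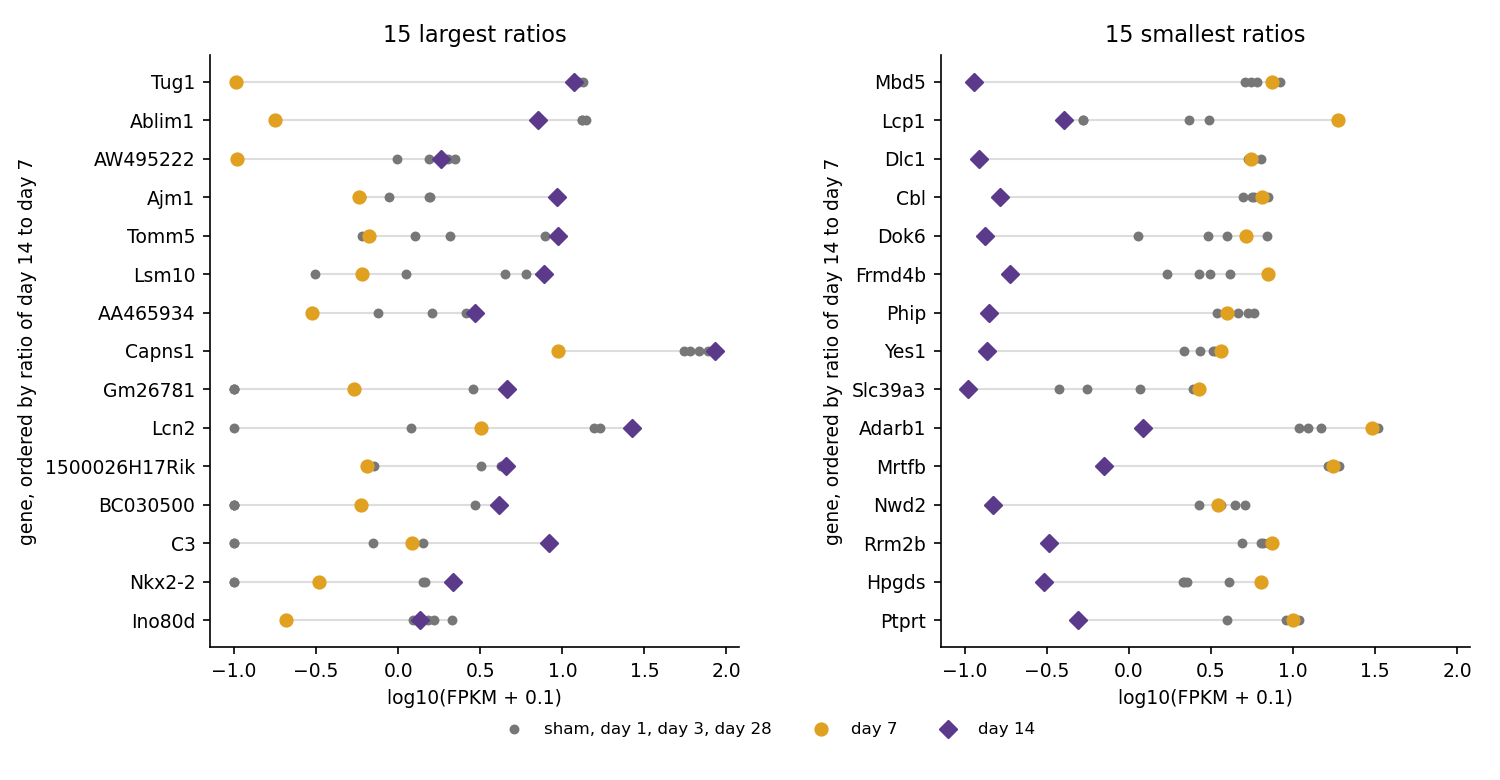
Values of the 15 genes with the largest and the 15 with the smallest ratio in all 6 libraries, as log10(FPKM + 0.1), with day 7 as circles, day 14 as diamonds and the other 4 libraries as grey dots. In the right panel the day 14 value stands alone at the left for every gene but Lcp1, whose day 1 and day 28 values lie near it.

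Genes listed in only 1 of both libraries carry no ratio. The 8 with the highest value at day 7 were Psd3, Apc, Sumo2, Gm2451, Reps2, AC113458.1, Pter and Rims1. Psd3, a guanine nucleotide exchange factor gene, was at 58.9 FPKM in sham, 40.8 and 49.96 at day 1 and day 3, and 51.1 at day 28, at 48.8 FPKM at day 7 and at 0 at day 14. Apc, of the Wnt pathway, was at 36.6 FPKM at day 7 and not listed at day 14, with at least 24.4 FPKM in each other library. Sumo2, Gm2451 and AC113458.1 were instead at 0 in every library but day 7. The 8 with the highest value at day 14 were mt-Tt, Rpl7a, Rpl29, Ssc4d, Mllt11, Phf5a, Gm8430 and Clec2d. The ribosomal protein genes Rpl7a and Rpl29 were at 91.6 and 66.5 FPKM at day 14 and at 0 at day 7, and they also differed elsewhere, with 24.4 and 1.48 FPKM in sham. No value of mt-Tt came from inside the annotated gene. Listing was thus uneven for widely used genes in both libraries.

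The 5 most abundant genes differed in part. Fth1, Mbp, Eef1a1, Ctsd and Cpe led at day 7, and Apoe, Fth1, Ptgds, Cst3 and Mbp at day 14. Mbp, of myelin, had 1416 FPKM at day 7 and 1409 FPKM at day 14, and ferritin heavy chain gene Fth1 2021 and 2796 FPKM. Apoe and Ctsd moved past the threshold in opposite directions, and Cst3, the cystatin C gene, rose from 758 to 1735 FPKM by its ends, while its starts were at 392 FPKM at day 7 and at 0 at day 14 and in 3 other libraries. The log2 ratio of Cst3 was 1.19, and 0.85 with length correction, which is within the threshold.

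Phagocyte genes stood high at day 7 and had mostly smaller values at day 14, with 1 large exception. Of 24 genes known from damage-associated microglia and lipid-laden macrophages, 6 were lower (8.52% of all genes were) and 1 was higher, and the median log2 ratio was -0.58, -0.68 after length correction and -0.58 by summed ends, against 0.01 for all genes. In 20 of 24 the ratio was below 0, and 19 had their highest value of the 6 libraries at day 7 (14.8% of all genes did). Relative to sham, 21 of them were at a log2 ratio of at least 1 at day 7 (9.02% of all genes compared) and 20 at day 14 (9.4%), so the list was lower than at day 7 but still far above control.

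Spp1 (chr5:104435118-104441050, GRCm38), which encodes the secreted matrix protein osteopontin, had 783 FPKM at day 7 and 151 FPKM at day 14, against 7.42 in sham, 24.3 and 323 at day 1 and day 3, and 18.5 at day 28. Its log2 ratio of -2.38 from day 7 to day 14 was equal in starts and ends. Gpnmb, a transmembrane glycoprotein gene of lysosome-rich macrophages, had 68.9 FPKM at day 7 and 27.6 FPKM at day 14, against 0.528 in sham, 1.06 and 18.6 at day 1 and day 3, and 2.60 at day 28. Both were highest at day 7 and stayed above day 1 at day 14. Plin2, which coats lipid droplets, had 44.7 FPKM at day 7 and 11.9 FPKM at day 14, against 1.37 in sham, 5.34 and 44.6 at day 1 and day 3, and 1.90 at day 28, and its log2 ratio of -1.90 was larger in size than those of lipoprotein lipase gene Lpl (-1.19, from 32.9 to 14.3 FPKM) and of the growth factor gene Igf1 (-1.18, from 11.2 to 4.86 FPKM). With length correction Igf1, of 7052 nt, was at -0.88. Cathepsin D gene Ctsd had 1169 FPKM at day 7 and 486 FPKM at day 14, against 124 in sham, 151 and 655 at day 1 and day 3, and 135 at day 28, but here the parts diverged, since the summed ends carried the whole fall and the summed starts were only 7.23 FPKM at day 7 and 11.3 FPKM at day 14. Lyz2, Cd68, Trem2 and Tyrobp moved from 357 to 196 FPKM, 29.8 to 19.0 FPKM, 63.2 to 44.4 FPKM and 146 to 117 FPKM, within the threshold, and Cst7, a cystatin gene, was at 14.0 and 17.4 FPKM.

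The exception was Apoe (chr7:19696109-19699188, GRCm38), the main lipid carrier gene of the brain, with 855 FPKM at day 7 and 3534 FPKM at day 14, against 716 in sham, 287 and 1386 at day 1 and day 3, and 1212 at day 28. Day 14 was more than any other library and the log2 ratio of day 14 to day 7 was 2.05, or 1.78 with length correction. By starts alone Apoe had 403 FPKM at day 7 and 2430 FPKM at day 14 (log2 ratio 2.59), and sham at 711 FPKM and day 3 at 1367 FPKM lay between. Apoc1, its neighbour in the apolipoprotein cluster, had 5.40 FPKM at day 7 and 15.6 FPKM at day 14, against 1.48 in sham, 2.89 and 2.28 at day 1 and day 3, and 1.01 at day 28. Both genes were therefore at their peak at day 14, when the scavenger receptor genes had passed theirs. Of the 16 compared genes of lipid loading and efflux, 2 were higher, which were these apolipoprotein genes, and 5 lower (beside 4.17% and 8.52% of all genes), with a median log2 ratio of -0.50. The lower ones were Plin2, Lpl, Cd36, Msr1 and the cholesterol exporter gene Abca1, which went from 16.4 to 7.94 FPKM. Abca1 has a longest transcript of 10262 nt, and its log2 ratio of -1.03 became -0.69 with length correction. Of 22 genes of cholesterol and fatty acid synthesis 1 was higher, Mvk, from 4.65 to 11.6 FPKM with at least 9.18 FPKM in each other library, and 0 lower.

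**Figure D4:**
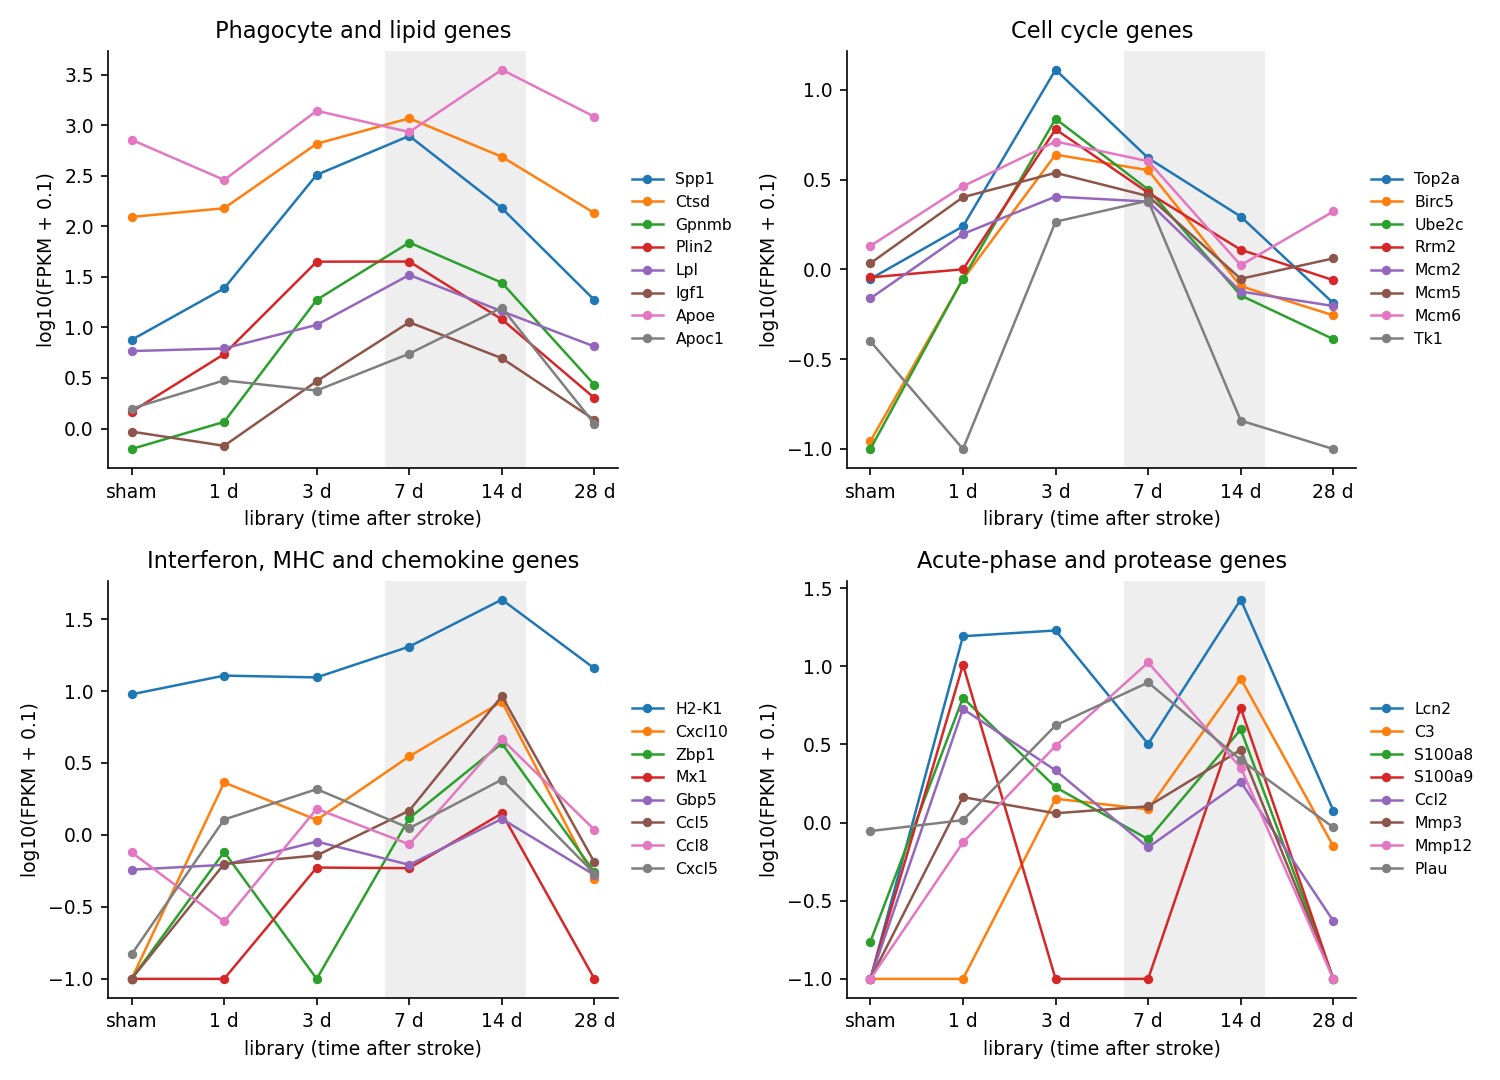
Values of 32 genes in the 6 libraries as log10(FPKM + 0.1), in 4 panels, with day 7 and day 14 shaded; points at -1.0 are genes not listed. Phagocyte genes other than Apoe and Apoc1 and cell cycle genes go down from day 7 to day 14, while the other genes go up, apart from the protease genes Mmp12 and Plau.

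Macrophage genes were lower in part. Of 12 compared genes of infiltrating and border macrophages, 6 were lower (8.52% of all genes were), 2 of them not listed at day 14, and 2 higher (4.17% of all), with a median log2 ratio of -0.86 (-1.16 after length correction, -0.69 by summed ends, and -0.65 over genes listed in both libraries). The summed value of the list, led at day 7 by Cd5l, was 59.4 FPKM at day 7 and 31.9 FPKM at day 14, with 7.64 in sham, 15.4 and 58.7 at day 1 and day 3, and 12.7 at day 28. The scavenger receptor gene Msr1 had 4.02 FPKM at day 7 and 0.192 FPKM at day 14, against 0 in sham, 0.589 and 3.96 at day 1 and day 3, and 0 at day 28, and fell in both starts and ends. Cd5l, which encodes a secreted macrophage protein, had 13.9 FPKM at day 7 and 3.43 FPKM at day 14, against 0 in sham, 0 and 6.29 at day 1 and day 3, and 0.872 at day 28. Cd36, a fatty acid and lipoprotein receptor gene, had 6.70 FPKM at day 7 and 1.11 FPKM at day 14, against 0.452 in sham, 0.464 and 3.82 at day 1 and day 3, and 0.455 at day 28. Ly6c2 and Plac8, both known from freshly recruited monocytes, went the other way, from 0.911 to 3.56 FPKM and from 0.718 to 2.42 FPKM, although the summed ends of Plac8 were at 0.718 FPKM at day 7 and at 0 at day 14. In tissue RNA, fewer cells of a type and less RNA per cell cannot be told apart.

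Genes of resident microglia had calls in both directions. Of 11 compared, 3 were higher (Siglech, Aif1 and Cx3cr1) and 2 lower (Fcrls and Sall1), beside 4.17% and 8.52% of all genes, with Cx3cr1 counted only because it was not listed at day 7, and the median log2 ratio was -0.43. After length correction 2 were higher and 2 lower, with a median of -0.32. Siglech, a sialic acid-binding lectin gene, had 4.22 FPKM at day 7 and 9.91 FPKM at day 14, against 7.01 in sham, 5.39 and 10.3 at day 1 and day 3, and 6.65 at day 28, with the same ratio in starts and ends. Fcrls, an Fc receptor-like gene, had 78.5 FPKM at day 7 and 36.7 FPKM at day 14, against 15.2 in sham, 19.2 and 63.9 at day 1 and day 3, and 3.63 at day 28. The growth factor receptor gene Csf1r was within the threshold, from 52.3 to 38.9 FPKM. Among 22 lysosomal genes 2 were lower, Gusb (26.7 to 11.0 FPKM) and Lgmn (142 to 70.2 FPKM), and none was higher, with a median of -0.40. The most abundant of them, Psap, was nearly level at 562 and 524 FPKM.

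Genes of cell division were lower as a group. Of 35 genes of DNA replication and mitosis, 23 were compared, 13 were lower (8.52% of all genes were) and 0 higher (4.17% of all), and the median log2 ratio was -1.08, the lowest of the 42 lists by this measure. It was -1.21 after length correction and -0.99 by summed ends, and with a pseudocount of 1 or a filter of 5 FPKM it was -0.67 or -0.58, within the threshold. Of the 10 genes with both sums in both libraries, 5 were lower in both. The mitotic ubiquitin-conjugating enzyme gene Ube2c had 2.69 FPKM at day 7 and 0.617 FPKM at day 14, against 0 in sham, 0.788 and 6.80 at day 1 and day 3, and 0.309 at day 28. Birc5, or survivin, of the chromosomal passenger complex, had 3.47 FPKM at day 7 and 0.707 FPKM at day 14, against 0.0107 in sham, 0.782 and 4.26 at day 1 and day 3, and 0.455 at day 28. Top2a, which untangles replicated DNA, had 4.07 FPKM at day 7 and 1.87 FPKM at day 14, against 0.786 in sham, 1.64 and 12.8 at day 1 and day 3, and 0.549 at day 28. In all 3 genes the peak was at day 3, and day 14 was nearer to day 1 than to day 7.

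Of the replication helicase genes some were lower. Mcm2, Mcm5 and Mcm6 went from 2.29 to 0.653 FPKM, from 2.46 to 0.787 FPKM and from 3.91 to 0.955 FPKM, with log2 ratios of -1.66, -1.53 and -1.92 that were the same or within 0.1 in starts and ends. Mcm4 and Mcm7 were within the threshold (2.76 to 2.15 FPKM and 6.20 to 4.12 FPKM). Thymidine kinase gene Tk1 fell from 2.31 to 0.0440 FPKM and was at 0 at day 28. The proliferation marker Mki67 was at 2.47 FPKM at day 7 and at 0 at day 14, but its longest transcript has 10061 nt and only 66.8% of its day 7 value lay inside the annotated gene. The genes detailed here had low values, and 12 genes of the list were below 1 FPKM in both libraries.

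The promoters of Ube2c and Top2a are shown because many promoters of cell cycle genes share short elements, the CCAAT box and the cell cycle homology region. The sequences are RefSeq promoters of GRCm38.p6, from 250 bases before the start site, 5′ to 3′ on the strand of the gene. Capitals mark CCAAT and TTTGAA on either strand, that is, also ATTGG and TTCAAA.
Ube2c, chr2:164769679-164769978, plus strand: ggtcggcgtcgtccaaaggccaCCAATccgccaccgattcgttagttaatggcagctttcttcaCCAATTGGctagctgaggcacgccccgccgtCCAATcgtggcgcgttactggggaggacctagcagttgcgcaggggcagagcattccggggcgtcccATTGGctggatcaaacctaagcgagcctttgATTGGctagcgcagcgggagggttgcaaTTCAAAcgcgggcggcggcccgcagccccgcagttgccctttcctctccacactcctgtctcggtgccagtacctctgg
Top2a, chr11:99024140-99024439, minus strand: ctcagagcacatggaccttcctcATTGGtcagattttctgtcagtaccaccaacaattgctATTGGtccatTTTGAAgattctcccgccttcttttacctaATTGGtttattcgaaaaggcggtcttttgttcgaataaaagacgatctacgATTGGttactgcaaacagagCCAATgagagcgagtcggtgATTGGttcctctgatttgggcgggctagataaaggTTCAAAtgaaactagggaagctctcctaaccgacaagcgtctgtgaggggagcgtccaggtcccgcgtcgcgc
Both promoters held CCAAT 6 times, with 2 matches overlapping on opposite strands in Ube2c, and both held TTTGAA or its complement less than 30 bases before the start site, to which Top2a added another further upstream. This list had 32 promoters, which belonged to 30 of its 35 genes. Of these, 28 (87.5%) held CCAAT and 18 (56.2%) held TTTGAA, against 37.4% and 17.9% of all 32851 promoters of that length. CCAAT was also in 12 of 17 promoters of MHC class I presentation genes (70.6%), of which 1 (5.88%) held TTTGAA. For interferon-stimulated and interferon-gamma-induced genes the share with CCAAT was 29.6% and 37.5%. A match describes the letters only and says nothing of factors bound in this tissue.

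Antigen presentation genes leaned upward, with few past the threshold. Of 16 compared genes of MHC class I presentation, 3 were higher (4.17% of all genes were), 0 lower and 13 at their highest of 6 libraries at day 14, against 27.8% of all genes. The median log2 ratio was 0.36, and 0.23 after length correction. H2-K1, a classical class I heavy chain gene, had 20.2 FPKM at day 7 and 43.1 FPKM at day 14, against 9.38 in sham, 12.7 and 12.3 at day 1 and day 3, and 14.2 at day 28. The light chain gene B2m had 239 FPKM at day 7 and 308 FPKM at day 14, against 71.1 in sham, 91.6 and 155 at day 1 and day 3, and 91.6 at day 28. With length correction the log2 ratio of H2-K1 went from 1.09 to 0.82 and that of B2m from 0.37 to 0.02, which is a sizeable part of both. H2 genes resemble one another closely and reads may be shared between them. The 6 compared class II genes had a median of 0.40 (0.17 after length correction) with none past the threshold, and H2-Aa, which encodes an alpha chain, had 6.23 FPKM at day 7 and 11.1 FPKM at day 14, against 1.16 in sham, 1.84 and 5.47 at day 1 and day 3, and 2.38 at day 28.

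Genes induced by interferons were mostly level. Among 30 interferon-stimulated genes, 2 were higher and 1 lower (beside 4.17% and 8.52% of all genes). The list had a median log2 ratio of 0.15, or -0.07 with length correction, so the list as a whole was level. It had already been high at day 7, with 25 of 30 genes at a log2 ratio to sham of at least 1 at day 7 and 25 at day 14 (9.02% and 9.4% of all genes). Zbp1, a sensor of left-handed nucleic acid, had 1.21 FPKM at day 7 and 4.22 FPKM at day 14, against 0 in sham, 0.662 and 0 at day 1 and day 3, and 0.450 at day 28. The antiviral GTPase gene Mx1 had 0.488 FPKM at day 7 and 1.31 FPKM at day 14, against 0 in sham, 0 and 0.494 at day 1 and day 3, and 0 at day 28. The RNA sensor gene Ifih1 was the lower one, at 1.11 FPKM at day 7 and not listed at day 14. Ifit3, at 15.2 and 17.9 FPKM, was within the threshold. Of 11 genes known for induction by interferon-gamma, 2 were higher, Cxcl10 and Gbp5, and 1 lower, Iigp1, which was at 1.71 FPKM at day 7 and not listed at day 14. Cxcl10, a T cell-attracting chemokine gene, had 3.42 FPKM at day 7 and 8.33 FPKM at day 14, against 0 in sham, 2.21 and 1.17 at day 1 and day 3, and 0.391 at day 28. The guanylate-binding protein gene Gbp5 had 0.520 FPKM at day 7 and 1.19 FPKM at day 14, against 0.474 in sham, 0.519 and 0.799 at day 1 and day 3, and 0.427 at day 28. Both had log2 ratios above 1 in starts and in ends, but with a pseudocount of 1 Gbp5 and Mx1 did not pass.

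The promoters of Cxcl10 and Gbp5 are shown for the core of the interferon-stimulated response element, that is GAAA, any 2 bases and GAAA, on either strand, in capitals, from the same RefSeq table.
Cxcl10, chr5:92348840-92349139, minus strand: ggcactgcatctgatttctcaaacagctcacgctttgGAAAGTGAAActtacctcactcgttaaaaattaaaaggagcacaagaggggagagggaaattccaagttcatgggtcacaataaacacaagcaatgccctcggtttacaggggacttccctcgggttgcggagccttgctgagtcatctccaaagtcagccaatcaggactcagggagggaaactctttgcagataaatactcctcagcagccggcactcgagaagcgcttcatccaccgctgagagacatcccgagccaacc
Gbp5, chr3:142496684-142496983, plus strand: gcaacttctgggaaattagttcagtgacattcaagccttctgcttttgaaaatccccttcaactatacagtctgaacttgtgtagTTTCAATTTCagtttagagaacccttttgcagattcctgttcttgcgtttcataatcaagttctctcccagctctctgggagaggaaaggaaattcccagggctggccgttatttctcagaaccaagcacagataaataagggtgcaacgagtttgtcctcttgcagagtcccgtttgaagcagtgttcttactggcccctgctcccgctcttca
Each held 1 match, and the RefSeq start of Gbp5 lay 269 nt from the nearest start event deposited for the gene. Of 16 promoters of 14 genes of the interferon-gamma list, 11 (68.8%) held the core, as did 14 of 27 promoters of interferon-stimulated genes (51.9%), against 3.44% of all promoters. The core was thus common to genes of these lists whether or not they moved between day 7 and day 14.

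Chemokine genes were the list with the most members higher. Of 14 compared, 5 were higher (4.17% of all genes were), 4 of them also after length correction, and 0 lower, with a median log2 ratio of 0.44 (0.42 after length correction). Ccl5, which attracts T cells and monocytes, had 1.38 FPKM at day 7 and 9.12 FPKM at day 14, against 0 in sham, 0.528 and 0.620 at day 1 and day 3, and 0.545 at day 28. Ccl8, a monocyte chemoattractant gene, had 0.760 FPKM at day 7 and 4.53 FPKM at day 14, against 0.657 in sham, 0.1504 and 1.42 at day 1 and day 3, and 0.986 at day 28. Day 14 was the highest library for both, with log2 ratios of 2.64 and 2.43 that were equal in starts and ends. Ccl2 and the neutrophil-attracting Cxcl5 rose from 0.594 to 1.73 FPKM and from 1.01 to 2.32 FPKM, and Ccl2 had been at 5.24 FPKM at day 1. With a pseudocount of 1 neither Ccl2 nor Cxcl5 passed the threshold. Ccl3 and Ccl4, made by microglia, were within the threshold in the other direction, from 5.90 to 3.76 FPKM and from 2.87 to 2.28 FPKM. Of 16 cytokine and growth factor genes 1 was higher, Il1b, and 2 were lower, Igf1 and Fgf2 (beside 4.17% and 8.52% of all genes). Il1b was not listed at day 7 and was at 1.11 FPKM at day 14. Fgf2 was at 2.86 FPKM at day 7, with 53.5% of that value inside the annotated gene, and was not listed at day 14.

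Lcn2, which encodes the iron-siderophore binder lipocalin-2, had 3.09 FPKM at day 7 and 26.6 FPKM at day 14, against 0 in sham, 15.5 and 16.9 at day 1 and day 3, and 1.10 at day 28. It was thus high at day 1 and day 3, low at day 7 and highest at day 14, with a log2 ratio of 3.07. The alarmin genes S100a8 and S100a9, stored by neutrophils, were higher at day 14 than at day 7 as well but highest at day 1, with 0.682 FPKM at day 7 and 3.84 FPKM at day 14, against 0.0729 in sham, 6.18 and 1.59 at day 1 and day 3, and 0 at day 28 for S100a8 and, for S100a9, 10.1 FPKM at day 1, 5.32 FPKM at day 14 and no listing in the other 4 libraries. Of 13 neutrophil genes, though, only 3 reached 1 FPKM in either library, 7 were below it and 3 had no value, and the third, the receptor gene Csf3r, went from 5.74 to 3.04 FPKM, which left the median log2 ratio at 2.33, or 0.72 over genes listed in both. With a filter of 0.5 FPKM the median was -0.35, and without a filter it was 0.06, so its direction depended on the filter. Cxcr2 and Ngp, also on the list, were at 0 in both libraries. The summed value was 8.61 FPKM at day 7 and 13.3 FPKM at day 14, with 1.53 in sham, 21.3 and 6.72 at day 1 and day 3, and 2.25 at day 28. The values do not tell which cells held these transcripts.

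Complement component gene C3 had 1.12 FPKM at day 7 and 8.25 FPKM at day 14, against 0 in sham, 0 and 1.32 at day 1 and day 3, and 0.607 at day 28, but its day 14 value came from a single splicing event, and its summed starts were 1.12 FPKM at day 7 and 1.04 FPKM at day 14, with no end event listed. The rise of C3 therefore rests on 1 kind of event. Cfp, or properdin, was the other higher gene of 10 complement genes compared (4.17% of all genes were higher), from 1.56 to 3.82 FPKM, with a log2 ratio of only 0.05 by starts. After length correction 1 of these genes was higher, C3, and Cfp no longer passed. C1qa, C1qb and C1qc were within the threshold, from 259 to 196 FPKM, 219 to 199 FPKM and 117 to 94.0 FPKM. Markers of lymphocytes were scarce. Of 20 genes 3 were compared, Cd4 at 2.78 and 4.43 FPKM, Cd79a at 0.611 and 1.03 FPKM, and Ikzf1, the 1 lower gene (8.52% of all genes were lower), at 2.73 and 0.378 FPKM. The T cell receptor complex genes Cd3e, Cd3d and Cd3g were below 1 FPKM or without a value in both libraries. The summed lymphocyte value went from 7.46 FPKM at day 7 to 8.79 FPKM at day 14, with 4.58 in sham, 3.01 and 5.52 at day 1 and day 3, and 6.11 at day 28, and the part of these cells in the other immune lists was not tested.

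Red cell genes were higher by the gene value, which for Hba-a2 did not hold inside the annotated gene. All 4 compared erythroid genes were higher at day 14 (4.17% of all genes were), and 3 of them also after length correction. Of the 2 genes with both sums in both libraries, 1 was higher in both. The median log2 ratio was 1.42 (1.08 after length correction). The beta-globin gene Hbb-bs had 62.0 FPKM at day 7 and 192 FPKM at day 14, against 117 in sham, 97.6 and 210.0 at day 1 and day 3, and 79.4 at day 28, so day 7 was the lowest of the 6 libraries and day 14 was near day 3. Hbb-bt had 22.1 FPKM at day 7 and 56.3 FPKM at day 14, against 40.1 in sham, 33.9 and 72.9 at day 1 and day 3, and 24.5 at day 28. For Hba-a2, at 75.2 and 210.4 FPKM, most of the day 14 value lay outside the annotated gene, and inside it the log2 ratio was -1.11. The summed value of the list, led by Hba-a2, went from 159.7 FPKM at day 7 to 460 FPKM at day 14. It was 293 in sham, 247 and 477 at day 1 and day 3, and 193 at day 28. These sums include the part of Hba-a2 that lay outside the annotated gene. Globin levels thus differed between both libraries, and the part of blood in the immune gene results was not tested.

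Reactive astrocyte genes had a median near 0 and calls in both directions. Of 21 compared, 2 were higher, Lcn2 and Steap4, and 3 lower, Emp1, Nes and Ggta1 (beside 4.17% and 8.52% of all genes), with a median log2 ratio of 0.21 (0.10 after length correction). Gfap, the intermediate filament gene of astrocytes, had 422 FPKM at day 7 and 380.0 FPKM at day 14, against 85.8 in sham, 329.9 and 698 at day 1 and day 3, and 149.7 at day 28. Serpina3n, a protease inhibitor gene, went from 38.8 to 62.0 FPKM and Vim from 81.5 to 67.6 FPKM, both within the threshold. Emp1, a membrane protein gene, fell from 5.48 to 2.40 FPKM in starts and ends alike, whereas Nes and Ggta1 were not listed at day 14 and Steap4 not at day 7. None of 15 genes of resting astrocytes passed the threshold, and their median was -0.05. Nor did any of 17 myelin genes (median -0.17) or 8 oligodendrocyte precursor genes (median -0.33).

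Matrix and protease lists had medians below 0, with matrix counts near those of all genes. Of 31 genes of fibrotic scar and basement membrane, 4 were lower (8.52% of all genes were) and 0 higher, with a median log2 ratio of -0.31 (-0.24 after length correction and -0.14 by summed ends). Fibronectin gene Fn1 had 28.0 FPKM at day 7 and 10.9 FPKM at day 14, against 9.76 in sham, 6.97 and 37.7 at day 1 and day 3, and 7.10 at day 28, and its log2 ratio of -1.35 was -1.05 with length correction. Collagen genes Col1a1, Col1a2 and Col3a1 were within the threshold, from 21.2 to 13.9 FPKM, 31.8 to 24.8 FPKM and 21.6 to 12.8 FPKM, and still well above their 2.46, 6.90 and 1.04 FPKM in sham. The crosslinking enzyme gene Lox was at 2.99 FPKM at day 7 and at 0 at day 14. Sparc, the most abundant gene of the list, was at 256 and 228 FPKM, and Dcn, a small proteoglycan gene, leaned the other way, at 24.005 and 34.7 FPKM.

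Of 16 genes of metalloproteinases, plasminogen activators and inhibitors, 5 were lower, 2 of them not listed at day 14, and 1 higher, beside 8.52% and 4.17% of all genes. Macrophage elastase gene Mmp12 had 10.5 FPKM at day 7 and 2.15 FPKM at day 14, against 0 in sham, 0.647 and 3.00 at day 1 and day 3, and 0 at day 28. The plasminogen activator gene Plau had 7.78 FPKM at day 7 and 2.42 FPKM at day 14, against 0.783 in sham, 0.937 and 4.09 at day 1 and day 3, and 0.832 at day 28, and fell equally in starts and ends. Mmp3, or stromelysin-1, was the higher one, with 1.17 FPKM at day 7 and 2.82 FPKM at day 14, against 0 in sham, 1.36 and 1.047 at day 1 and day 3, and 0 at day 28, and its log2 ratio with length correction was 0.94. Adamts1 and Adamts9, both long, were not listed at day 14. Endothelial and pericyte genes were near the background, with 1 of 19 lower, Flt1, which was not listed at day 14, and a median of 0.10.

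Neuronal lists held few calls, mostly on long genes and in most lists near the shares of all genes (4.17% higher and 8.52% lower). Of 39 potassium channel genes 1 was higher and 3 lower, of 23 sodium and calcium channel genes 1 and 1, of 20 glutamate receptor genes 0 and 3, of 24 GABA receptor and interneuron genes 1 and 1, of 26 genes of transmitter release 1 and 1, and of 23 postsynaptic genes 0 and 2. Their median log2 ratios lay between -0.10 and 0.04. With length correction all 6 medians were above 0, from 0.06 for potassium channels to 0.25 for sodium and calcium channels, whose genes had a median length of 7926 nt. For the glutamate receptor, potassium channel and postsynaptic lists the direction thus changed with length correction.

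Gria2, the AMPA receptor subunit gene that limits calcium entry, had 87.7 FPKM at day 7 and 34.7 FPKM at day 14, against 119 in sham, 69.5 and 78.5 at day 1 and day 3, and 109 at day 28, with a longest transcript of 10371 nt, and its log2 ratio of -1.33 became -0.99 with length correction. Grm5, a metabotropic glutamate receptor gene, had 24.03 FPKM at day 7 and 10.5 FPKM at day 14, against 24.9 in sham, 14.7 and 24.9 at day 1 and day 3, and 19.6 at day 28, and -0.88 after correction. The NMDA receptor subunit gene Grin2a and the potassium channel gene Kcnh7, of 14634 and 13321 nt, were not listed at day 14, from 10.8 and 5.06 FPKM. Homer1, a postsynaptic scaffold gene, had 25.2 FPKM at day 7 and 12.2 FPKM at day 14, against 24.5 in sham, 25.7 and 28.0 at day 1 and day 3, and 24.96 at day 28. It was lower in starts and in ends, though within the threshold with length correction. For others the parts disagreed. Cacna2d1, a calcium channel subunit gene, fell from 26.1 to 10.1 FPKM by starts and rose from 0.680 to 1.82 FPKM by ends. Bsn, of the presynaptic active zone, with 15938 nt, rose from 11.4 to 23.9 FPKM by ends and fell from 11.4 to 1.51 FPKM by starts. The sodium channel gene Scn1a (5.82 to 12.4 FPKM) and the interneuron glycoprotein gene Reln (5.72 to 13.8 FPKM) were higher by their ends, and by starts both had a value at day 7 and none at day 14.

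Other neuronal genes varied in direction. Nrgn, a calmodulin-binding postsynaptic gene, had 449 FPKM at day 7 and 806 FPKM at day 14, against 698 in sham, 561 and 483 at day 1 and day 3, and 506 at day 28. Syp, of synaptic vesicles, had 374 FPKM at day 7 and 475 FPKM at day 14, and both genes were within the threshold. Of 13 cortical excitatory genes none was higher and 2 were lower (8.52% of all genes were lower), with a median of 0.36, or 0.40 with length correction. Immediate early genes had 1 of 14 lower, Homer1, or 0 with length correction, and a median of 0.04. Of 16 axon growth genes 1 was lower, Gal (2.23 to 0.997 FPKM), and Gap43 was level at 129 and 123 FPKM. None of 9 striatal genes passed the threshold, and their median of 0.43 became 0.23 with length correction.

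Lists of short transcripts followed the trend with length. The 60 compared cytosolic ribosomal protein genes had a median log2 ratio of 0.38 and 47 of them were highest of all libraries at day 14, and the 73 nuclear-coded respiratory chain genes had a median of 0.43 with 52 highest at day 14. After length correction the medians were 0.11 and 0.15. Only 3 and 3 genes of these lists were higher by the threshold (4.17% of all genes were), and 2 and 0 after length correction. Of the 3 ribosomal genes, 2 passed because they were not listed at day 7. The third, Rpl26, rose from 171 to 375 FPKM by starts and fell from 129 to 3.49 FPKM by ends. Rpl41 was lower, from 154 to 11.1 FPKM, and had been at 0.491 FPKM at day 1 and 0 at day 3, so single ribosomal genes were listed unevenly.

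Stress and other small lists held isolated calls, beside 4.17% higher and 8.52% lower among all genes. Ddit3, a stress-induced transcription factor gene, was the 1 higher gene of 15 of heat shock and the unfolded protein response, from 0.970 to 3.78 FPKM, but most of its day 14 value lay outside the annotated gene. Hmox1, or heme oxygenase-1, was the 1 lower gene of 16 of iron and antioxidant defence, with 19.7 FPKM at day 7 and 8.604 FPKM at day 14, against 2.20 in sham, 27.0 and 65.2 at day 1 and day 3, and 3.63 at day 28. The beta-globin genes Hbb-bs and Hbb-bt rose from day 7 to day 14, but they and Hmox1 were all highest at day 3. A relation between them was not tested. Of 13 glucocorticoid-responsive genes Lcn2 was higher and Sgk1 (40.2 to 19.3 FPKM) and Zbtb16 (3.22 to 0.756 FPKM) lower, while the metallothionein gene Mt1 was within the threshold (313 to 492 FPKM) and its ends were not listed at day 14. Among 9 histone genes H3f3a was higher (26.5 to 62.9 FPKM) and Hist1h3d, not listed at day 14, lower. Of 6 hypothalamic peptide genes Pomc was higher (1.29 to 2.72 FPKM) and Pmch (7.74 to 3.48 FPKM) and Gal lower, and of 10 choroid plexus genes Slc4a5 was lower (1.14 to 0.497 FPKM), though not by its ends (log2 ratio 0.13).

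**Figure D5:**
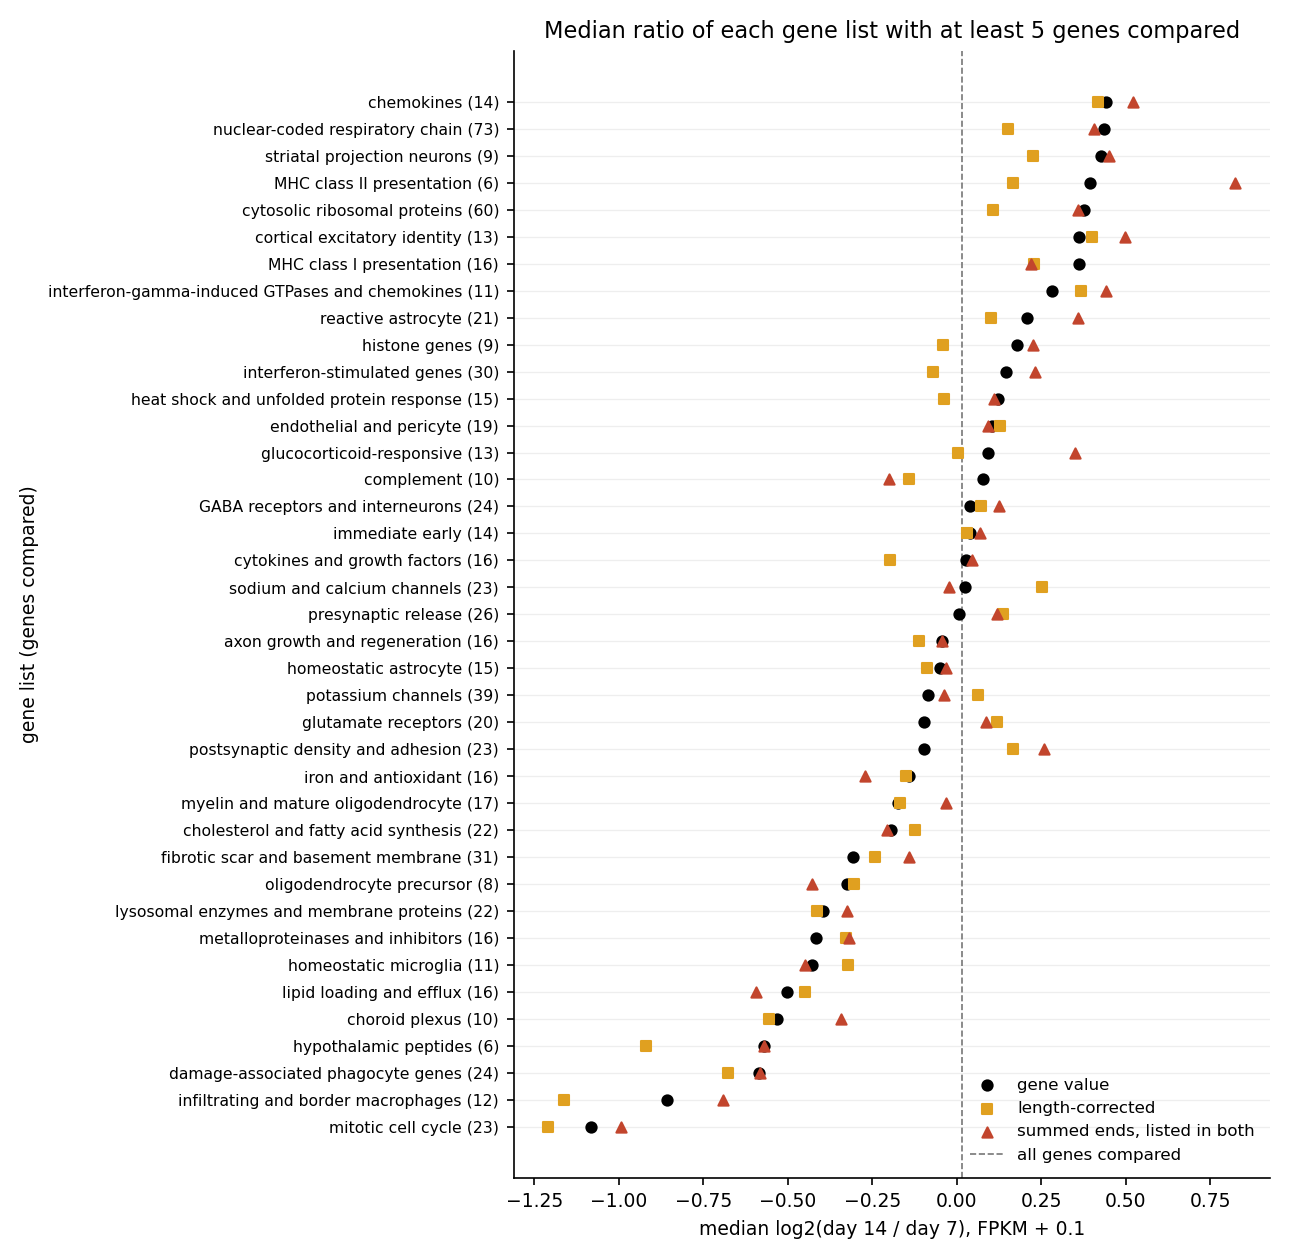
Median log2 ratio of day 14 to day 7 for each list with at least 5 genes compared (number in brackets), by the gene value, after length correction and by summed ends listed in both libraries; the dashed line is the median of all genes compared, 0.01. Cell cycle and macrophage lists lie lowest in all 3 measures, and the respiratory chain and ribosomal lists move toward the line after length correction.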

How the data were processed

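The authors deposited FPKM for transcript starts, transcript ends and splicing events of assembled loci, and their processing notes name Trimmomatic 0.30, HISAT2 2.0.1, HTSeq 0.6.1 and the mm10 genome. The assembler and the depth of each library were not found in the sources used here. Loci were matched to genes by their Ensembl identifier, and positions and transcript lengths came from the GENCODE annotation of GRCm38. Ratios were log2((day 14 + 0.1) / (day 7 + 0.1)) for genes of at least 1 FPKM in either library, without further scaling, since quartile scaling left the median log2 ratio at -0.01. Length correction subtracted the median of 20 bins of longest transcript length. Named genes were the 15 largest and 15 smallest ratios among genes listed in both libraries, the 8 highest genes listed in only 1 of them in each direction, the 5 most abundant per library, and members of 42 lists, some of which are not reported here. The genes compared and the lists were chosen with earlier results of these data known. The methods were tested on simulated data in which every transcript had a start and an end. Genes with starts or ends missing from a library were thus not covered. Calculations used numpy 2.4.6, scipy 1.17.1 and pandas 2.3.3 under Python 3.11.15, and plots matplotlib 3.10.9.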

Additional observations from a re-analysis of the deposited data

Results flagged for a closer look

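Of 137 loci that carried no gene identifier and reached 1 FPKM in either library, 26 were higher and 32 lower at day 14 than at day 7 (4.17% and 8.52% of all genes were), in data that the gene comparison did not use. Only 7 of the higher and 11 of the lower loci were listed in both libraries, and 50 of the 137 lay on patch scaffolds. A locus on chromosome 14 was at 0.621 FPKM at day 7 and 5.27 FPKM at day 14, against 0.914 in sham, 0.707 and 4.70 at day 1 and day 3, and 2.37 at day 28. A locus on chromosome 6 was at 2.50 FPKM at day 7 and 0.998 FPKM at day 14, against 0.870 in sham, 0.491 and 1.88 at day 1 and day 3, and 2.79 at day 28. What these loci encode was not tested.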

How the results depend on the processing

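The numbers of higher and lower genes depended on the settings. With a pseudocount of 1 there were 295 higher and 762 lower genes, with a filter of 5 FPKM 220 higher and 325 lower, and without a filter 1012 higher and 1924 lower. A log2 threshold of 2 gave 127 higher and 550 lower genes, and genes listed in both libraries gave 684 lower. By summed starts, with unlisted genes at 0, 2204 genes were lower. The rank correlation with median in place of longest transcript length was -0.214. Alternatives chosen after seeing the data were summed starts or ends listed in both libraries, with 438 lower genes by ends, summed ends with unlisted genes at 0 and length bins, leaving out genes that 1 library set apart (489 higher, 710 lower), and starts and ends both past the threshold, with 181 higher and 228 lower genes.

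Some log2 ratios changed sign. By starts they were -2.83 for Bsn, -0.0906 for C3 (also by the larger of both sums), -11.94 for Cst3, 0.63 for Ctsd, -4.89 for Reln and -4.74 for Scn1a. The starts of Cst3, Reln and Scn1a were not listed at day 14, so the size of these ratios depends on the 0.1 added. By ends the log2 ratios were 1.30 for Cacna2d1 (1.47 with length bins) and -5.17 for Rpl26 (-5.52 with length bins). Inside the annotated gene Hba-a2 was at -1.11. The median of the neutrophil list, 2.33 as reported, was -0.35 with a filter of 0.5 FPKM, which brought in more genes. Otherwise the cause was not tested. Of 172 named genes 131 were past the threshold, and 97 of them kept direction and side under each planned setting that gave them a value, leaving aside the threshold of 2. Length correction in 20 bins moved 16 back within the threshold, and a pseudocount of 1 moved 20. Without replicates and with depth unknown, no interval can be given for any ratio.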
